A study of Homo sapiens with 6 samples.

Results

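The genes described here are the TAM receptor kinases AXL, TYRO3 and MERTK, their ligands GAS6 and PROS1, the MET family receptor kinases MET and MST1R, the membrane protease ST14 and the protease inhibitors SPINT1 and SPINT2. They were chosen by name from the count table, and all 10 had a row among its 33835 genes. The libraries came from DU145, an established human prostate cancer cell line grown in DMEM with fetal calf serum. Cells were transduced with a short hairpin against E6AP, the ubiquitin ligase encoded by UBE3A (shE6AP, 3 libraries), or with a wobble hairpin that the labels call a control against E6AP (wobble, 3 libraries). Both groups were given doxycycline at 0.2 µg/ml for 2.5 days, to induce the knockdown. The study asked which transcripts depend on E6AP. The sequence of the wobble hairpin, and whether each group is a pool or a clone, were not given in the sources used here. Nothing states that libraries of a group came from separate cultures, so every p-value measures only the spread between these libraries, which may be technical.

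TAM receptors are cell-surface tyrosine kinases that bind the vitamin K-dependent proteins GAS6 and protein S, the product of PROS1, which bridge them to phosphatidylserine on dying cells and membranes. GAS6 binds all TAM receptors, whereas protein S acts mainly on TYRO3 and MERTK. MET is the receptor of hepatocyte growth factor, and MST1R encodes RON, the receptor of macrophage-stimulating protein. Both ligands are secreted as inactive precursors, which serine proteases such as matriptase, the product of ST14, cut into their active form. SPINT1 and SPINT2 encode the Kunitz-type inhibitors HAI-1 and HAI-2, which block matriptase and related proteases. In carcinoma cells AXL and MET are known for their part in migration, invasion and resistance to drugs that target other receptor kinases.

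The libraries held 21558506 to 30488217 reads assigned to genes. UBE3A fell from 55.8 ± 1.97 CPM in wobble to 14.6 ± 0.376 CPM in shE6AP (SD, n = 3), 26.1% of the wobble level. CPM express each gene's reads relative to the size of its library, adjusted by TMM factors. For the labelled cell type, all 7 epithelial markers had a row, and their summed level was 2792 to 2928 CPM in wobble and 2161 to 2214 CPM in shE6AP. Most of that sum was KRT7, which fell from 1911 to 1119.5 CPM. KRT19 (215 to 196 CPM) and CDH1 (30.1 to 27.1 CPM) fell, KRT8 (318 to 370 CPM), KRT18 (351 to 442 CPM) and EPCAM (17.7 to 36.4 CPM) rose, and KRT5 had at most 2 reads in any library. Of 6 blood cell markers, 4 had a row, and their summed level was 3.36 to 4.43 CPM in wobble and 5.29 to 6.34 CPM in shE6AP, with PTPRC at 0.267 and 0.359 CPM. Of 8 fibroblast and endothelial markers, 7 had a row, with a sum of 13.5 to 16.5 CPM in wobble and 18.0 to 19.4 CPM in shE6AP, most of it COL1A1 (13.1 and 17.3 CPM). Single genes of both lists moved both ways. Among 4 blood cell markers tested, 1 was higher and 1 lower in edgeR at an adjusted p under 0.05. Among 3 fibroblast and endothelial markers tested, 1 was higher and 1 lower, beside 28.6% higher and 30.4% lower among all genes tested. These 3 sums moved with the groups, the epithelial one down and the other two up, and their part in the results below was not tested. Fewer cells of a type and less RNA per cell cannot be told apart in such bulk samples.

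In shE6AP cells ST14 rose 2.51-fold and AXL 2.08-fold, GAS6 1.57-fold and SPINT1 1.51-fold. SPINT2, MET and MST1R rose less, to 120.2%, 114% and 109.8% of the wobble level. TYRO3 and MERTK, the other TAM receptors, fell to 81.8% and 83.0% of the wobble level. PROS1 did not pass the test. All 10 genes were tested, and 7 were higher, 2 lower and 1 not passing in edgeR's quasi-likelihood test with a Benjamini-Hochberg adjusted p under 0.05. Across all 19433 genes tested, 59.0% passed, 28.6% higher and 30.4% lower. The median log2 fold change of shE6AP over wobble was 0.23 for the 10 genes and 0.0084 for all genes tested. Every shE6AP library lay above every wobble library for 8 of the 10 genes and below for 2, against 30.6% and 31.9% of all genes tested. Against a fold of at least 1.2 (edgeR's glmTreat), 4 of the 10 passed, AXL, GAS6, ST14 and SPINT1, all higher. Of all 19433 genes tested, glmTreat called 2553 higher and 3084 lower. By the same test 0 of the 10 were lower, also at an unadjusted p under 0.05. DESeq2 against no change called 2 of the 10 lower, beside 5108 of all genes tested.

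**Figure D1:**
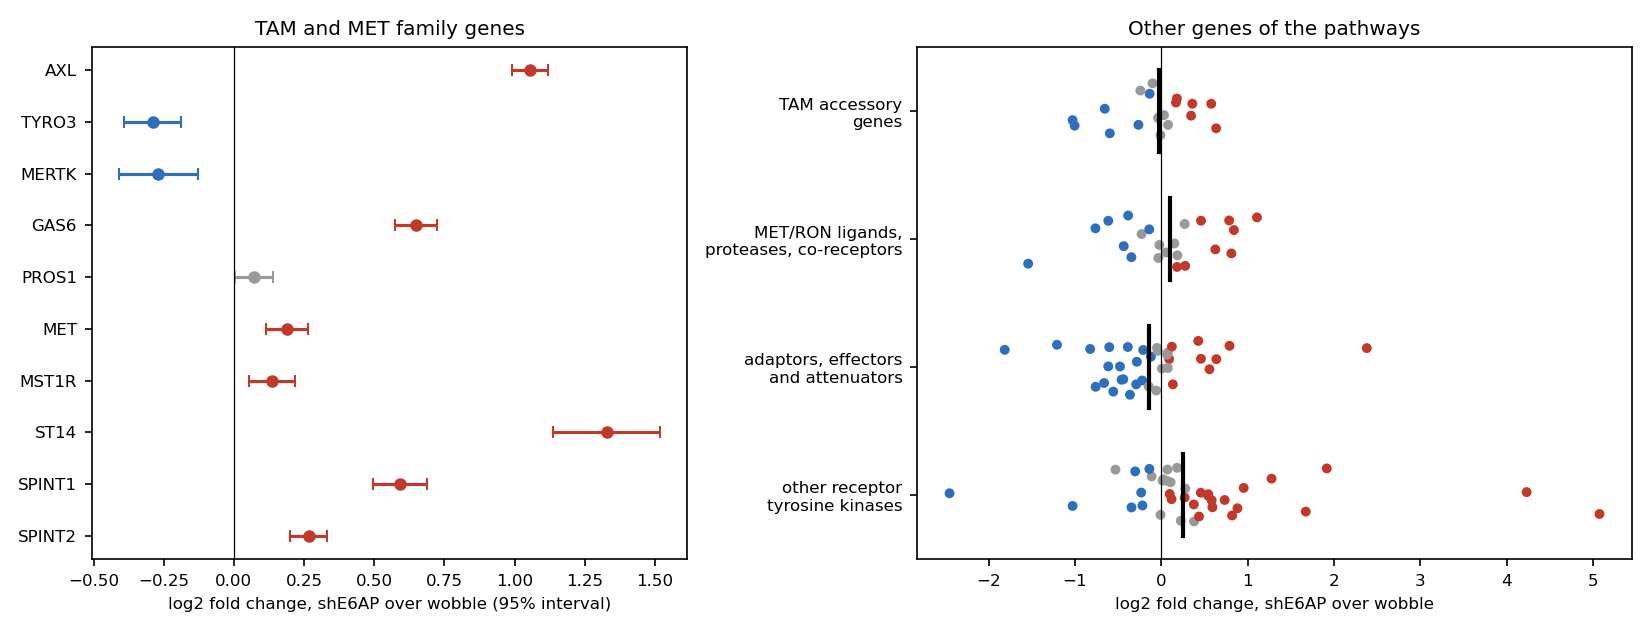
Change between the groups as the log2 ratio of shE6AP to wobble (horizontal axes). Left, the 10 genes with 95% intervals of the edgeR fit, from -0.29 for TYRO3 to 1.33 for ST14. Right, each tested gene of 4 pathway lists as a point, with the list median as a black bar. Red marks genes that rose, blue genes that fell and grey genes that did not pass.

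AXL is the TAM receptor with the highest affinity for GAS6. It stood at 554, 559 and 527 CPM in wobble libraries 1 to 3 and at 1136, 1157 and 1117 CPM in shE6AP libraries 1 to 3. The groups were far apart, and the libraries within each lay close together. On the log2 scale AXL rose by 1.06 (SE 0.0323, 95% interval 0.99 to 1.12; adjusted p 5.12e-29, edgeR). Of all genes tested, 3.23% passed and at least doubled. Behind these levels were 14272 to 16785 reads in wobble and 24698 to 32383 reads in shE6AP. RefSeq lists 2 starts for AXL, and counts per gene do not tell their transcripts apart. The 250 bases before each AXL start are shown with those before the starts of GAS6, the ligand that rose with it, and of MET, which rose less. They come from RefSeq on GRCh38.p14 and are read 5′ to 3′ on the gene's strand, with the GC box letters GGGCGG, or their reverse complement, in capitals. The windows lie at chr19:41218973-41219222 and chr19:41226505-41226754 on the plus strand for AXL, chr13:113864077-113864326 on the minus strand for GAS6 and chr7:116671946-116672195 on the plus strand for MET.
AXL start 1: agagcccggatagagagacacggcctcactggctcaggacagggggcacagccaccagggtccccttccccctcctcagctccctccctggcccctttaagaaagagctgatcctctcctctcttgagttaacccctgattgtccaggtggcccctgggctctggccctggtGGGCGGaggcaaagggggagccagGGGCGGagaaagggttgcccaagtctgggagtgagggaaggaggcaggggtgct
AXL start 2: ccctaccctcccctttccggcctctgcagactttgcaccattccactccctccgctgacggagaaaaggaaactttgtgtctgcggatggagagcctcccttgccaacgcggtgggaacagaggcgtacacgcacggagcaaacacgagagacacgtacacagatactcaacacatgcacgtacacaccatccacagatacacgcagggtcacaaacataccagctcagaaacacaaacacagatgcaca
GAS6: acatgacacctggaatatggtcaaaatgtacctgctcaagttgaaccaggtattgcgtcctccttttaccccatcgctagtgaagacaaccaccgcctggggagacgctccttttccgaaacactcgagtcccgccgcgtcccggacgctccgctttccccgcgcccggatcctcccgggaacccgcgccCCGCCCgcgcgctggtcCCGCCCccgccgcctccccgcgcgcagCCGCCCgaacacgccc
MET: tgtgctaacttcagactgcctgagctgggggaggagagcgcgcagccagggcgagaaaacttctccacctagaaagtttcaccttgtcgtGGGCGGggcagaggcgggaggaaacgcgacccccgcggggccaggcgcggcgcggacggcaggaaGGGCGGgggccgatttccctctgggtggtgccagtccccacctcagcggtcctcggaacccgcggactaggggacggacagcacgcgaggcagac
The GC box letters occurred 2 times before AXL start 1, 0 times before AXL start 2, 3 times before GAS6 and 2 times before MET. They occurred in 42.6% of the 35116 windows of 250 bases in the same RefSeq table. The letters GGAATG, bound by TEAD factors, occurred 1 time before AXL start 2 on the minus strand and in none of the other 3 windows shown, against 11.9% of all windows. TGANTCA, the AP-1 motif, occurred in none of the 4, against 6.57% of all windows. No search letters overlapped those of another motif, both strands were searched, and a match is only a match of letters. Of the 10 genes, 8 had a window in that table.

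TYRO3 and MERTK moved the other way from AXL. TYRO3, a TAM receptor best known from the nervous system, stood at 37.9, 33.6 and 33.6 CPM in wobble and 28.96, 28.1 and 28.9 CPM in shE6AP. The wobble libraries were all higher, with wobble library 1 above the other two. TYRO3 had a log2 fold change of -0.29 (SE 0.0509; adjusted p 3.83e-06, edgeR). MERTK, the TAM receptor through which macrophages take up dying cells, stood at 13.6, 14.4 and 13.6 CPM in wobble and 11.4, 11.1 and 11.97 CPM in shE6AP. Its groups did not overlap either, and its log2 fold change was -0.27 (SE 0.0698, adjusted p 0.000926 in the same test). MERTK rested on 238 to 416 reads per library. Neither of these calls held against a fold of 1.2.

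The share of TAM receptor reads that fell on AXL was larger in shE6AP, with no overlap between groups. AXL took 91.5%, 92.1% and 91.8% of the reads on the TAM receptors in wobble and 96.6%, 96.7% and 96.5% in shE6AP. The difference of means was 4.79 percentage points (p = 0.1 in an exact two-sided permutation test, which cannot go lower with 3 libraries against 3). A share within a library needs no scaling between libraries. Reads are not adjusted for gene length here, so the share describes reads and not molecules.

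Of the ligands, GAS6 rose and PROS1 did not pass. GAS6, the ligand of all TAM receptors, stood at 77.1, 74.4 and 70.5 CPM in wobble and at 117, 115 and 116 CPM in shE6AP. Every shE6AP library was above every wobble library, by a log2 fold change of 0.65 (SE 0.0373; adjusted p 2.76e-19, edgeR). The library kit does not mark strand, and in GENCODE release 29 exons of the antisense gene GAS6-AS1 overlap 7.01% of the exon bases of GAS6, so reads there cannot be assigned to one of them. The same holds for 1.30% of the exon bases of AXL, under the antisense gene AC011510.1, for 2.82% of those of SPINT1, under SPINT1-AS1, and for 6.23% and 0.552% of those of MST1R, under AC105935.2 and AC105935.1. For SPINT2 it is 4.65%, shared with AC011479.1 on the same strand. Of these overlapping genes, AC011510.1, AC105935.1 and AC011479.1 had a row of their own, whereas GAS6-AS1, SPINT1-AS1 and AC105935.2 had none. PROS1, which encodes the anticoagulant and TAM ligand protein S, stood at 169.8, 173 and 176 CPM in wobble and 179.5, 182 and 183 CPM in shE6AP. Its groups did not overlap, but lay only a few CPM apart. PROS1 differed by 0.071 on the log2 scale (95% interval 0.0053 to 0.14; adjusted p 0.0584, edgeR). Its call passed under 7 of the 18 alternatives, among them the replicate block (adjusted p 0.0168 in edgeR), the fit without wobble library 3 (0.0486) and upper-quartile scaling (adjusted p 0.00737 in edgeR), and its adjusted p reached 1 against a fold of 1.2. PROSP, the row for the PROS1 pseudogene, held 30 to 46 reads per library and did not pass, and reads may be split between the copies.

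GAS6 made up 31.2%, 30.1% and 28.6% of the reads on both ligands in wobble and 39.5%, 38.6% and 38.8% in shE6AP. The groups did not overlap, with a difference of means of 9.01 percentage points (exact two-sided permutation p = 0.1, the smallest possible here).

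**Figure D2:**
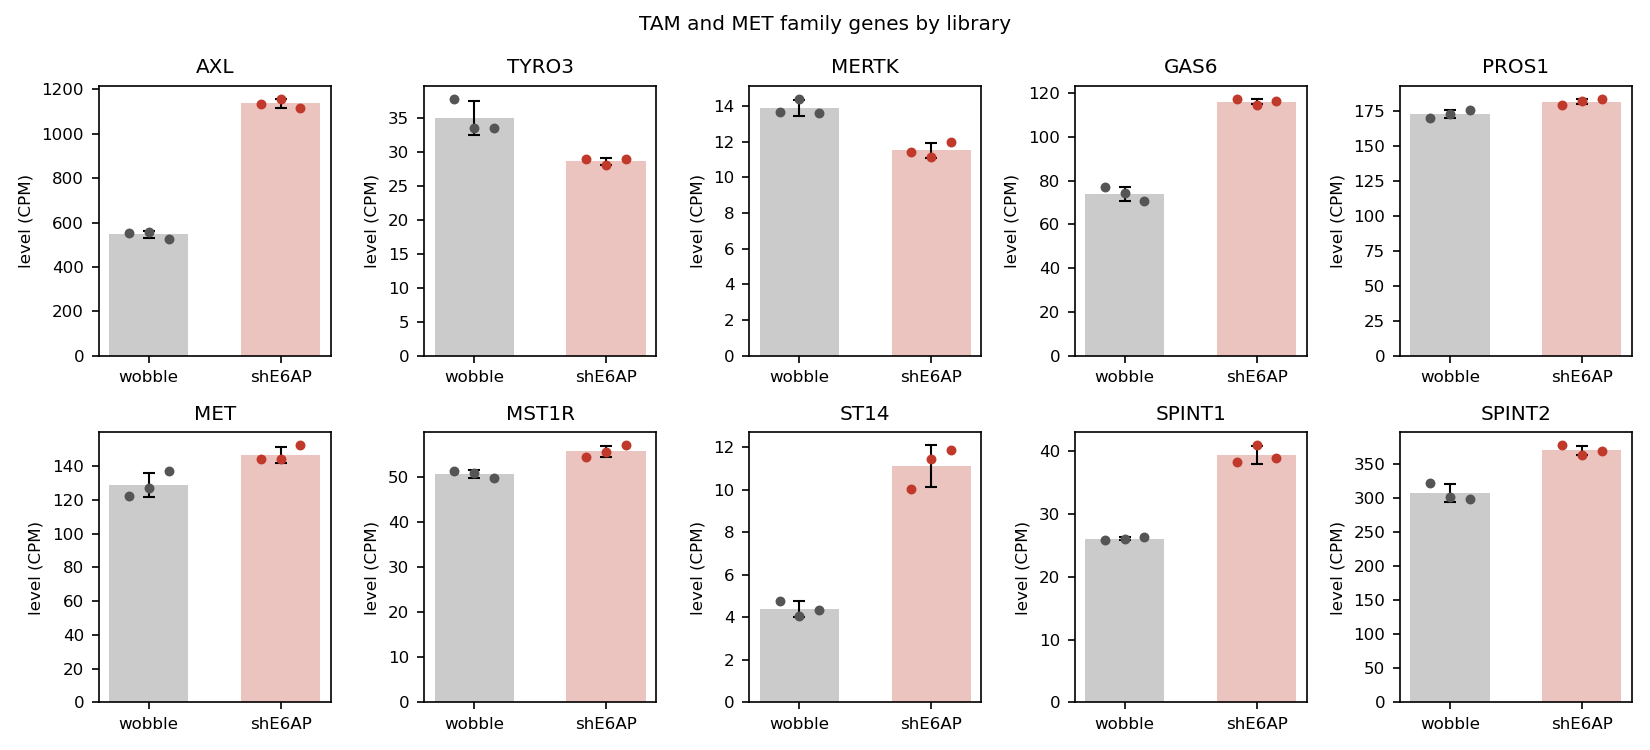
Level in CPM (vertical axes, from 0) of each of the 10 genes in wobble and shE6AP. Each point is a library, each bar a group mean, and whiskers give the SD (n = 3). AXL lies between 527 and 559 CPM in wobble and between 1117 and 1157 CPM in shE6AP, and only TYRO3 and MERTK are lower in shE6AP.

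The MET family receptors rose slightly. MET stood at 122, 127 and 137 CPM in wobble and at 144, 144 and 152 CPM in shE6AP. The groups were close, with wobble library 3 nearest to shE6AP. MET rose by 0.19 on the log2 scale (SE 0.0373, 95% interval 0.11 to 0.26; adjusted p 2.54e-05, edgeR). MST1R, or RON, stood at 51.3, 51.0 and 49.8 CPM in wobble and 54.5, 55.6 and 57.1 CPM in shE6AP. It too did not overlap between groups, with a log2 fold change of 0.13 (SE 0.0404, adjusted p 0.00389 in the same test). Neither call held against a fold of 1.2, nor with an assumed variation of 10% between libraries in place of the measured 2.77% (adjusted p 0.222 for MET and 0.415 for MST1R in edgeR's likelihood ratio test).

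MST1R made up 29.5%, 28.6% and 26.7% of the reads on both MET family receptors in wobble and 27.5%, 27.8% and 27.3% in shE6AP. Here the groups overlapped, and the difference of means was -0.76 percentage points (exact two-sided permutation p = 0.4). It was -0.14 without wobble library 1 and -1.55 without wobble library 3. The ligand of MST1R is encoded by MST1, which stood at 8.75 ± 0.371 CPM in wobble and 9.69 ± 0.393 CPM in shE6AP (SD, n = 3) and did not pass (adjusted p 0.101 in edgeR's quasi-likelihood test). MST1P9, a copy of MST1 with which reads may be split, stood at 6.79 ± 0.249 and 5.82 ± 0.169 CPM and just passed as lower (adjusted p 0.0425 in the same test, 0.159 in DESeq2). Its call was lost without any 1 library other than wobble library 1, with an adjusted p of 0.0598 to 0.116 in edgeR. Both levels are therefore uncertain. HGF, the gene of the MET ligand, was not analysed here.

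Among the genes that control ligand cutting, the protease and both inhibitors rose, the protease by the largest factor. ST14, or matriptase, stood at 4.79, 4.05 and 4.35 CPM in wobble and 10.0, 11.4 and 11.9 CPM in shE6AP. The libraries of shE6AP were all more than 2 times as high as those of wobble. On the log2 scale ST14 rose by 1.33 (SE 0.095, 95% interval 1.14 to 1.52; adjusted p 3.85e-16, edgeR). ST14 rested on few reads, 117 to 145 in wobble and 244 to 286 in shE6AP. SPINT1, or HAI-1, which forms a complex with matriptase, stood at 25.8, 26.1 and 26.3 CPM in wobble and 38.3, 40.9 and 38.9 CPM in shE6AP. Its log2 fold change was 0.59 (SE 0.0477, adjusted p 1.54e-14 in the same test), with no overlap between groups. SPINT2, or HAI-2, stood at 323, 303 and 299 CPM in wobble and 378, 364 and 370 CPM in shE6AP. SPINT2 rose by 0.27 on the log2 scale (SE 0.0331; adjusted p 2.95e-09, edgeR), a call that did not hold against a fold of 1.2 (adjusted p 0.493 in glmTreat).

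Per 1000 reads on SPINT1 and SPINT2 together there were 13.7, 12.3 and 13.4 reads on ST14 in wobble and 24.1, 28.2 and 29.1 in shE6AP. The groups did not overlap, and shE6AP library 1 was the lowest of its group. The ratio of the means was 2.06 (exact two-sided permutation p = 0.1, the smallest possible here). The ratio counts reads and is not adjusted for gene length.

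**Figure D3:**
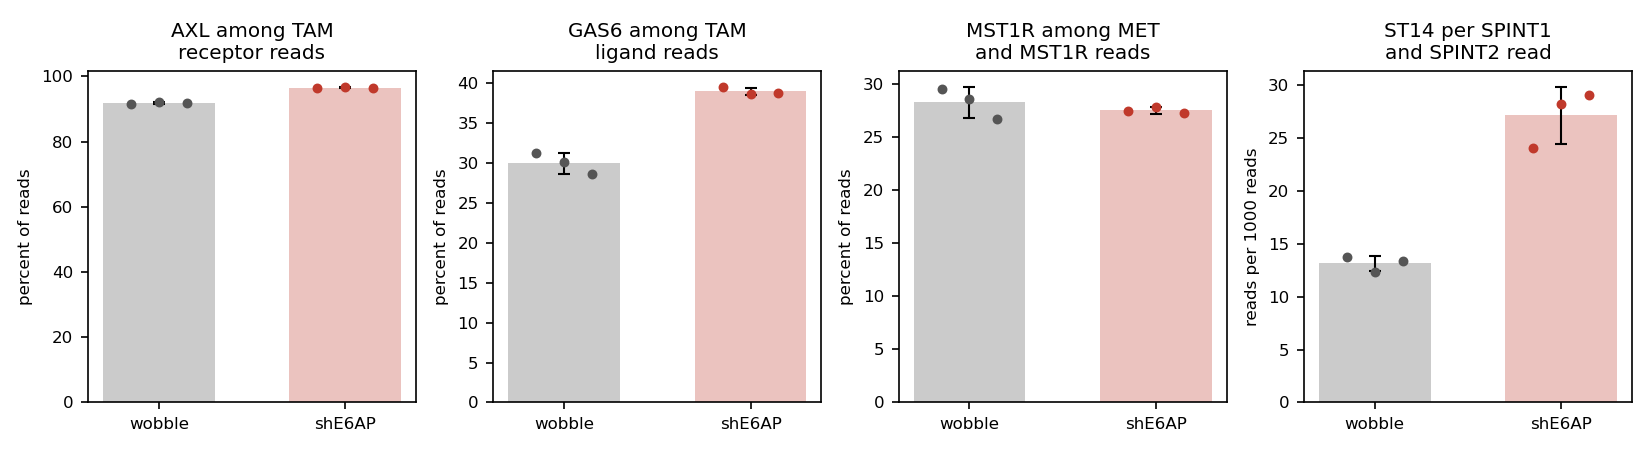
Composition within each library (vertical axes, from 0) for wobble and shE6AP, as a percentage of reads in the first 3 panels and as ST14 reads per 1000 SPINT1 and SPINT2 reads in the last. Points are libraries, bars are means and whiskers the SD (n = 3). AXL, GAS6 and ST14 separate the groups, and the MST1R share overlaps between them.

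Levels of different genes were compared per length, as RPKM, the CPM per kilobase of merged GENCODE release 29 exons. In wobble the receptors ranked AXL (106 ± 3.41 RPKM), MET (18.3 ± 1.04), MST1R (9.65 ± 0.15), TYRO3 (3.20 ± 0.225) and MERTK (2.95 ± 0.0968; SD, n = 3). With these lengths TYRO3 and MERTK did not differ beyond their spread in wobble, whereas each other pair of neighbours did. The order was the same in shE6AP, with AXL at 221 ± 3.85 and MET at 20.9 ± 0.67 RPKM, and with exon lengths of the GENCODE basic transcripts. In shE6AP TYRO3 (2.62 ± 0.045 RPKM) and MERTK (2.45 ± 0.0898; SD, n = 3) did differ beyond their spread. With the basic transcripts TYRO3 and MERTK stood at 3.89 and 3.16 RPKM in wobble. Among the other genes the order in wobble was SPINT2 (59.3 RPKM), PROS1 (31.8), GAS6 (12.3), SPINT1 (7.36) and ST14 (1.01). Those RPKM levels depended on the lengths used: with the basic transcripts SPINT2 stood at 171 and GAS6 at 29.7 RPKM in wobble, and SPINT2 was then above AXL, at 112.

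Set against all 54 receptor tyrosine kinases with a row, AXL ranked 1 by RPKM in both groups, ahead of EPHA2 and EGFR in wobble. MET ranked 4 and MST1R 10 in both groups, TYRO3 19 in wobble and 21 in shE6AP, and MERTK 21 and 23. With lengths of the basic transcripts AXL still ranked 1 and MST1R 13 in both groups, and MET 7 in wobble and 6 in shE6AP. AXL took 31.6%, 31.7% and 30.4% of the summed RPKM of these kinases in wobble and 44.4%, 44.4% and 43.5% in shE6AP, a sum chosen after the levels were seen. The share depended on the lengths: with the basic transcripts it was 27.0%, 27.1% and 26.0% in wobble and 39.2%, 39.3% and 38.5% in shE6AP. The groups did not overlap (exact two-sided permutation p = 0.1, the smallest possible here). By log2 fold change AXL ranked 6 of the 43 receptor kinases tested, and MET 22.

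**Figure D4:**
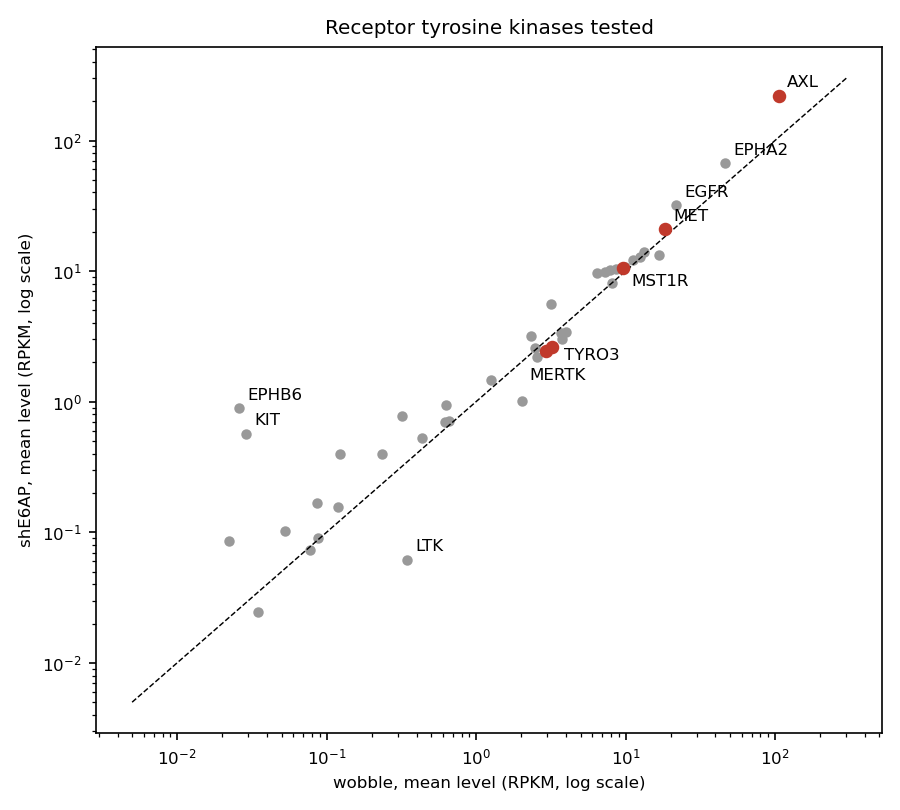
Mean level in RPKM of the 43 receptor tyrosine kinases tested in wobble (horizontal axis) and shE6AP (vertical axis), both on a log scale. Red points are AXL, MET, MST1R, TYRO3 and MERTK, grey points other receptor kinases, and the dashed line marks equal levels. AXL has the highest level in both groups and lies above the line, while TYRO3 and MERTK lie just below it.

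Other receptor tyrosine kinases moved both ways. Of 38 tested, 19 rose (50%), 7 fell (18.4%) and 12 did not pass, beside 28.6% higher and 30.4% lower among all genes tested. Their median log2 fold change was 0.25, beside 0.0084 for all genes tested. By smallest p the leading rises were EPHB6, an Eph receptor without kinase activity (0.138 to 4.76 CPM), PTK7, a pseudokinase of Wnt signalling (28.8 to 50.9 CPM), and EPHA2 (191 to 279 CPM). EPHB6 rested on 3 to 5 reads per wobble library. The leading falls were FGFR3 (9.90 to 4.90 CPM), EPHB4 (109 to 85.5 CPM) and LTK (1.21 to 0.215 CPM, with 2 to 8 reads per shE6AP library).

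Genes that act with the TAM receptors moved both ways. Of 18 tested, 6 rose, 6 fell and 6 did not pass, so that 33.3% were higher and 33.3% lower, near the 28.6% and 30.4% of all genes tested. Their median log2 fold change was -0.023. UBASH3B, a phosphatase that opposes CBL-driven receptor turnover, rose from 48.4 to 75.3 CPM, and ELMO2, an adaptor of engulfment, from 32.8 to 49.0 CPM. GGCX, the vitamin K-dependent carboxylase that GAS6 and protein S need to bind phosphatidylserine, rose from 36.5 to 46.8 CPM. RAC1, the GTPase that drives membrane ruffling and uptake, fell from 303 to 149 CPM. SOCS3, a feedback inhibitor of cytokine receptors, fell from 59.2 to 29.5 CPM, and TENC1 (TNS2), a tensin that binds AXL, from 42.0 to 26.8 CPM.

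Ligands, proteases and co-receptors around MET and RON also moved both ways. Of 22 tested, 8 rose, 7 fell and 7 did not pass, so that 36.4% were higher and 31.8% lower, again near the shares of all genes tested (28.6% and 30.4%). Their median log2 fold change was 0.10. CD44, whose variant forms act as MET co-receptors, fell from 297 ± 4.95 to 102 ± 2.85 CPM (SD, n = 3), ITGB4, the integrin beta 4 chain, from 75.8 to 44.9 CPM, and PLXNB1, a semaphorin receptor that associates with MET, from 26.9 to 17.5 CPM. SDC1, a heparan sulphate proteoglycan, rose from 143 to 220.2 CPM, PLAUR, the urokinase receptor, from 57.1 to 78.7 CPM, and ICAM1, an adhesion molecule, from 269 to 305 CPM.

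Of 35 adaptors, effectors and attenuators of these receptors, 9 rose (25.7%), 18 fell (51.4%) and 8 did not pass, beside 28.6% higher and 30.4% lower among all genes tested. Their median log2 fold change was -0.14. By smallest p, the leading falls were in PTPRJ, DAB2IP and PTPN1. PTPRJ, a receptor phosphatase that acts on MET, fell from 114 ± 1.23 to 32.4 ± 0.783 CPM (SD, n = 3). DAB2IP, a RAS GTPase-activating protein, fell from 157 to 68.1 CPM, and PTPN1, a phosphatase that acts on many receptor kinases, from 230.5 to 146 CPM. The leading rises were in SH3GL2, an endophilin of receptor endocytosis (1.14 to 5.99 CPM), PTPN2, a phosphatase related to PTPN1 (46.6 to 72.6 CPM), and RANBP10, a MET-binding protein (20.0 to 34.5 CPM). The adjusted p of the genes named from these 4 lists as leading rises or falls ran from 5.19e-34 for CD44 and PTPRJ to 6.97e-06 for ICAM1 in edgeR's quasi-likelihood test.

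The genes closest to AXL over the 6 libraries, by Euclidean distance of centred log2 CPM among 12383 other genes with a mean of at least 5 CPM, were SRPR (distance 0.0503), TGM2 (0.056) and PVR (0.0579). SRPR, a subunit of the signal recognition particle receptor, rose from 134 to 274 CPM, TGM2, a transglutaminase, from 581 to 1245 CPM, and PVR, an adhesion receptor, from 195 to 417 CPM. Closest to MET were MLH3, a mismatch repair gene (0.0278), KDM6A, a histone demethylase (0.0376), and ZBTB34, a zinc finger gene (0.038). MLH3 stood at 36.0 CPM in wobble and 41.2 CPM in shE6AP, KDM6A at 27.6 and 31.6 CPM, and ZBTB34 at 20.0 and 23.1 CPM. Such distances over 2 groups of 3 follow mainly the size of the difference between groups.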

How the data were processed

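RNA was extracted from DU145 cells with TRIzol and made into TruSeq RNA version 2 libraries, 3 per group, per the labels' protocols. The submitters' processing notes name the build hg19, the aligners Bowtie2 and TopHat2 (2.0.13) and the counter HTSeq. Annotation and strand setting were not given in the sources used here. The deposited table holds raw counts of reads per gene. HTSeq's summary rows (14.6% to 16.0% of reads outside genes, 2.05% to 2.21% ambiguous), a nameless row (up to 4.59e-05% of the reads) and 1 row with a name only were left out.

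edgeR 4.0.16 in R 4.3.3 was run on the whole table with filterByExpr (19433 genes kept), TMM factors, group as the only term and Benjamini-Hochberg adjustment over all genes tested, with a threshold of 0.05. Standard errors (SE) came from the log2 fold change divided by the root of edgeR's F. CPM use TMM-scaled library sizes. Shares of reads were compared with exact permutation tests in scipy 1.17.1. RPKM use merged exons of GENCODE release 29 (GRCh38), which is not the build of the counts, so they are approximate. TNS2 was matched through its synonym TENC1. The pipeline was tested on simulated data of 19433 genes, with 50 changed at each fold. It recovered 58% of those at a fold of 1.2, 92% at 1.5 and 100% at 2 and at 4. Of its calls 4.89% were false. Far fewer genes were changed there than the 59.0% that passed in the measured data.

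Alternatives were other scalings, DESeq2 1.42.0, limma-voom 3.58.1, robust dispersion, other filters, the replicate block, each library left out and glmTreat. Assumed variation of 0.1 or 0.2 was added after seeing the data. The genes and lists were chosen with earlier results of these data known. Named were UBE3A, the 10 genes, copies of them, MST1 as the MST1R ligand, the 3 smallest p in each direction of each pathway list, and the 3 genes nearest to AXL and to MET. Marker genes and EGFR were named after their values were seen.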

Additional observations from a re-analysis of the deposited data

How the results depend on the processing

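Each of the 10 genes kept its direction under all 18 alternatives of the count analysis, with log2 fold changes of 1.02 to 1.08 for AXL and 1.26 to 1.40 for ST14, both called in all 18. Without each library in turn, 7 or 8 of the 10 were called higher and 2 lower. glmTreat against a fold of 1.2 called 5637 of all 19433 genes tested, 2553 higher and 3084 lower. Of the 10 it called 4 higher and 0 lower, and of the other receptor kinases 15 higher and 3 lower. With an assumed variation of 0.1 edgeR's likelihood ratio test called 6743 genes, 3110 higher and 3633 lower. Of the 10 it called 4 higher and 0 lower (2 lower at an unadjusted p under 0.05). Among the other receptor kinases it called 15 higher and 3 lower. With 0.2 it called 2237 genes, 983 higher and 1254 lower. Of the 10 it then called AXL and ST14, so 2 higher and 0 lower (4 and 0 unadjusted). That setting also called 0 TAM accessory genes higher and 2 lower (2 and 4 unadjusted), 0 MET and RON genes higher and 2 lower (5 and 3 unadjusted), 2 adaptors higher and 5 lower, and 7 other receptor kinases higher and 2 lower. The settings of 0.1 and 0.2 assumed a larger spread, the same for every gene, and also used another test than the main fit. Their parts in the losses were not separated. Upper-quartile scaling moved the median of all genes to 0.0367 on the log2 scale and turned the split of all calls to 6073 higher and 5491 lower, from 5564 and 5903.

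The groups share replicate numbers, but same-numbered libraries deviated together only weakly (correlations 0.0438, 0.0166 and 0.0372), although each library correlated best with its own number. The replicate block called 11979 genes in place of 11467, and 8 of the 10 higher and 2 lower. ST14 had as few as 117 reads in a library, which limits its precision.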
